A study of Mus musculus with 6 samples.

Results

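Toll-like receptor, TNF and NF-kB signalling was followed in mouse liver through 43 genes chosen by name, from the receptors that sense microbial products and damaged tissue to the cytokines and chemokines that the pathway switches on. Of these, 39 have a row with a gene symbol in the array table, among 19505 genes in all. Irak1, Irak4, Nfkb1 and Chuk have no named row and were not analysed here. Livers of 3 male C57BL/6 mice of genotype HMGB2-KO (animals 39, 41 and 32, replicates 1 to 3) were compared with livers of 3 male C57BL/6 mice of genotype WT (animals 38, 40 and 31, replicates 1 to 3), all 8 weeks old. The labels name no treatment, surgery or litter, and the sources used here do not give the type of knockout. Each liver was read on 1 Clariom S mouse array, a single-colour array that measures each transcript through several short probes. Nothing in the labels ties the replicates to separate cages or days, so the tests measure the spread between these 6 livers.

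Toll-like receptors recognise bacterial lipids and proteins or nucleic acids and pass the signal through the adaptors MyD88 and TRIF to kinases of the IRAK family and the ubiquitin ligase TRAF6. The IKK complex then marks the inhibitor IkB for destruction, which frees NF-kB dimers to enter the nucleus, and receptors for TNF and IL-1 feed into the same step. In liver the receptors are found on Kupffer cells, the resident macrophages, and to a varying extent on endothelial cells and hepatocytes. HMGB proteins released from cells have been described as ligands of TLR2, TLR4 and the receptor RAGE (encoded by Ager), mostly from work on HMGB1.

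The deposited values are differences, on a log scale taken as log2, from a row baseline that the sources used here do not give. They were centred on each array's median. A value is thus no level, values of different genes cannot be set against each other as levels, and whether a gene is read above background in liver is unknown. For the same reason the defining markers of hepatocytes could not be used to check the tissue. In these bulk samples a change in the number of cells of a type and a change in RNA per cell cannot be told apart. The array of WT replicate 2 stood apart, with a median of 0.26 before centring against -0.05 to 0.01 on the other 5 arrays, and 132 rows lay more than 2 log2 below every other array on it, against 4 to 33 on the others. Hmgb2 was at -0.66, -0.33 and -0.43 in the HMGB2-KO livers, against 0.47, 0.36 and 0.42 in the WT livers, so each liver lay on the side of its label. Its log2 fold change was -0.89 (SE 0.13) or 1.85-fold lower (limma, unadjusted p = 0.000183, adjusted p = 0.645). Hmgb2 itself thus did not pass the adjusted threshold of 0.05.

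None of the 39 genes passed the test in HMGB2-KO against WT livers (limma with Benjamini-Hochberg adjustment over all 19505 genes, threshold 0.05, smallest adjusted p among them 0.994). No gene of the array passed it either (0% called), although 717 had an unadjusted p under 0.05, and the smallest adjusted p of all was 0.350. At an unadjusted p under 0.05 there were 2 of 39 genes, Tnfrsf1b on the higher and Cxcl1 on the lower side, which is 5.13% of them, beside a background of 3.68% of all genes (1.06% on the higher and 2.61% on the lower side). The count lay between 0 without moderation of the spread (4.29% of all genes) and 3 without WT replicate 2 (3.24%), and was 1 without centring (4.85%) or under quantile normalization (3.74%). The log2 fold changes ran from -0.34 to 0.68, and 1 of 39 genes differed by at least 1.5-fold in size, beside 2.82% of all genes. Their median was 0.08, against -0.00 over all genes, with 24 of 39 higher (background 49.5%). With the values as deposited, which hold the arrays' differing medians and bring the all-gene median to -0.12, the median of the 39 was -0.04 and 15 of 39 were higher, beside 23.0% of all genes. After centring, the median value of the 39 genes in a liver was 0.045 to 0.050 in HMGB2-KO and 0.009 to 0.029 in WT, without overlap. These medians overlapped with the values as deposited and did not with quantile normalization.

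**Figure D1:**
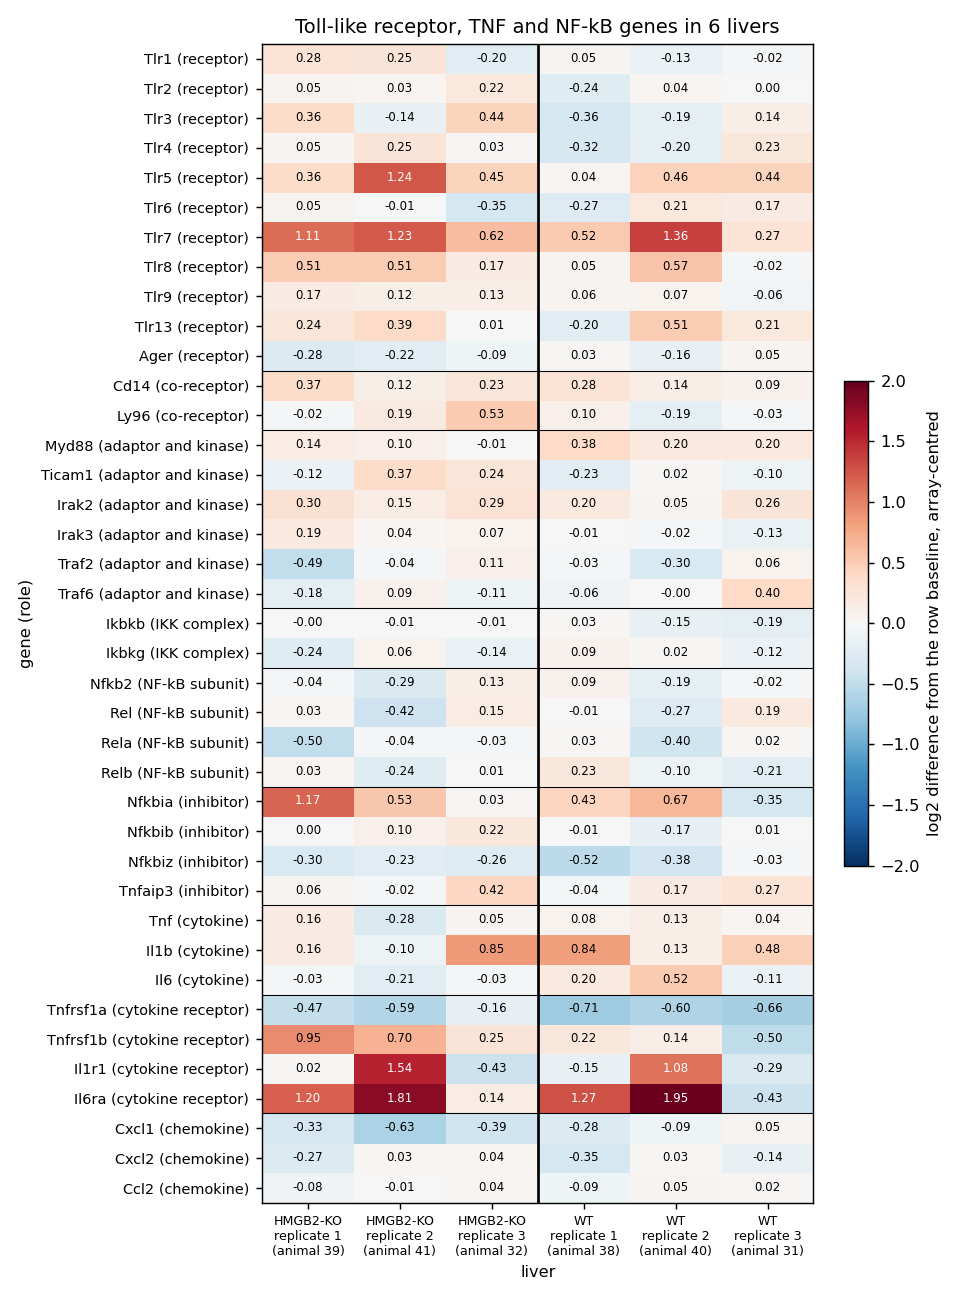
Values of the 39 measured genes (rows, ordered by role) in the 6 livers (columns, HMGB2-KO left of the thick line and WT right of it), as log2 differences from each row's baseline after centring each array, with the value printed in each cell and colour from -2 to 2. Most cells lie near 0, and the widest spread is that of Il6ra, from -0.43 to 1.95, with both extremes in WT livers.

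In 6 of 39 genes the 3 HMGB2-KO values lay on 1 side of all 3 WT values, which is 15.4% beside a background of 9.67% (4.32% on the higher and 5.35% on the lower side). Higher in this sense were Tnfrsf1b, Tnfrsf1a, Irak3 and Tlr9, and lower were Cxcl1 and Myd88. A two-sided exact permutation test gave 0.1 for each, which is the lowest p that groups of 3 livers can reach. With the values as deposited the separated genes were 3, namely Cxcl1, Myd88 and Ager, all on the lower side, where 10.6% of all genes were separated as lower and 0.795% as higher. With quantile normalization they were 4, namely Tnfrsf1b, Irak3, Tlr9 and Tlr2, all on the higher side, beside 4.98% of all genes separated as higher and 4.83% as lower.

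The receptors come first in the pathway. Of 10 Toll-like receptor genes 9 had a positive log2 fold change after centring, 9 after quantile normalization and 7 on the values as deposited, and 0 of 10 had an unadjusted p under 0.05 in limma (background 3.68%). Of all genes 49.5%, 54.0% and 23.0% had a positive fold change under these 3 scalings in that order. The hepatocyte marker list also had 9 of 10 genes higher after centring. Without WT replicate 2 it had 3 of 10 and the Toll-like receptor genes 9 of 10, beside 47.7% of all genes. The part of single arrays in these counts was not tested. The receptor fold changes lay between -0.14 for Tlr6 and 0.37 for Tlr5, and their median was 0.18 after centring and 0.06 on the values as deposited. The median value of the 10 genes was 0.26, 0.25 and 0.15 in HMGB2-KO replicates 1 to 3, against -0.08, 0.14 and 0.15 in WT replicates 1 to 3. HMGB2-KO replicate 3 thus lay level with WT replicates 2 and 3, and the genotypes overlap. WT replicate 1 alone lay below all other livers, and the counts of the list without that liver were not taken.

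Tlr4, which encodes the receptor for bacterial lipopolysaccharide, was at 0.05, 0.25 and 0.03 in HMGB2-KO replicates 1 to 3, against -0.32, -0.20 and 0.23 in WT replicates 1 to 3. The single highest HMGB2-KO liver and WT replicate 3 were nearly level, and the groups overlap. Its log2 fold change was 0.21 (SE 0.17), with a 95% confidence interval of -0.19 to 0.61. It was 0.37 without WT replicate 3, with an unadjusted p of 0.0408 in limma, and 0.096 without WT replicate 1, with an unadjusted p of 0.615.

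Tlr2, the receptor for bacterial lipoproteins, was at 0.05, 0.03 and 0.22 in the HMGB2-KO livers, against -0.24, 0.04 and 0.00 in the WT livers. WT replicate 1 was low and the other 5 livers lay between 0.00 and 0.22. The log2 fold change was 0.17 (SE 0.13), with an interval of -0.14 to 0.47, and it was 0.079 without WT replicate 1. Ager had values of -0.28, -0.22 and -0.09 in the HMGB2-KO livers, against 0.03, -0.16 and 0.05 in the WT livers. Its HMGB2-KO livers were low apart from replicate 3, which lay between WT livers, and its log2 fold change was -0.17 (SE 0.13), with an interval of -0.46 to 0.12. For these 3 genes, the receptors described for HMGB proteins, the intervals include 0 and leave room for a difference of up to 0.61 on the log2 scale for Tlr4.

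Tlr3 reads double-stranded RNA in endosomes and signals through TRIF alone. It had the smallest p of the Toll-like receptor genes, with values of 0.36, -0.14 and 0.44 in the HMGB2-KO livers, against -0.36, -0.19 and 0.14 in the WT livers. HMGB2-KO replicate 2 fell among the WT livers, and the log2 fold change was 0.36 (SE 0.20), or 0.54 without HMGB2-KO replicate 2. Tlr5, the flagellin receptor, was at 0.36, 1.24 and 0.45 in the HMGB2-KO livers, against 0.04, 0.46 and 0.44 in the WT livers. HMGB2-KO replicate 2 alone was far above the rest, and the log2 fold change of 0.37 (SE 0.25) was 0.09 without that liver and 0.53 without HMGB2-KO replicate 1.

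The endosomal receptors for single-stranded RNA, Tlr7 and Tlr8, shared an order of livers. Tlr7 was at 1.11, 1.23 and 0.62 in the HMGB2-KO livers, against 0.52, 1.36 and 0.27 in the WT livers. Tlr8 was at 0.51, 0.51 and 0.17 in the HMGB2-KO livers, against 0.05, 0.57 and -0.02 in the WT livers. In both genes WT replicate 2 was the highest of all 6 livers and the other WT livers lay below all 3 HMGB2-KO livers. Without WT replicate 2, the array that stands apart, both had an unadjusted p under 0.05 in limma. With all livers the log2 fold changes were 0.27 (SE 0.30) and 0.20 (SE 0.19). The fold change of Tlr7 was 0.59 without WT replicate 2 and 0.049 without WT replicate 3 (unadjusted p = 0.873 in limma). That of Tlr8 was 0.38 without WT replicate 2 and 0.088 without WT replicate 3 (unadjusted p = 0.687 in limma).

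Tlr9, the receptor for unmethylated CpG DNA, varied little, with a within-genotype SD of 0.05 that was exceeded by 98.7% of all genes. Its values were 0.17, 0.12 and 0.13 in the HMGB2-KO livers, against 0.06, 0.07 and -0.06 in the WT livers. The groups did not overlap, at a log2 fold change of 0.11 (SE 0.11). With the values as deposited it was -0.01 and the groups overlapped. The remaining receptors were Tlr1 and Tlr6, which pair with TLR2, and Tlr13, which reads bacterial ribosomal RNA in mice. Their log2 fold changes were 0.14 (SE 0.16), -0.14 (SE 0.18) and 0.04 (SE 0.20), with overlapping groups in each.

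The co-receptors of TLR4 pass lipopolysaccharide on to it. Ly96, which encodes the bound subunit MD-2, was at -0.02, 0.19 and 0.53 in the HMGB2-KO livers, against 0.10, -0.19 and -0.03 in the WT livers. HMGB2-KO replicate 3 stood above the rest and the groups overlap, with a log2 fold change of 0.28 (SE 0.17), or 0.13 without HMGB2-KO replicate 3. Cd14 was at 0.37, 0.12 and 0.23 in the HMGB2-KO livers, against 0.28, 0.14 and 0.09 in the WT livers. All 6 livers lay within 0.27 of one another, a range smaller than in 90.6% of all genes, and the log2 fold change was 0.07 (SE 0.13), with an interval of -0.22 to 0.37.

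Markers of Kupffer cells, which carry several of these receptors, lay on the same side. Of 12 listed markers 11 were measured. A positive log2 fold change was found in 11 of 11 after centring or quantile normalization, and in 9 of 11 on the uncentred values. Of all genes 49.5%, 54.0% and 23.0% had one after centring, after quantile normalization and on the uncentred values. None of the 11 had an unadjusted p under 0.05 in limma (background 3.68%). The marker lists were chosen with earlier results of these data known. The median of the 11 was 0.51, 0.41 and 0.60 in HMGB2-KO replicates 1 to 3, against 0.26, 0.15 and 0.40 in WT replicates 1 to 3, so the genotypes did not overlap, with a narrow gap between HMGB2-KO replicate 2 and WT replicate 3. With the values as deposited they overlapped, at 0.36 to 0.55 in HMGB2-KO and 0.27 to 0.41 in WT, as they did with quantile normalization, at 0.43 to 0.66 in HMGB2-KO and 0.11 to 0.47 in WT. The defining markers were at log2 fold changes of 0.15 for Clec4f, 0.23 for Timd4 and 0.15 for Vsig4. The medians of the endothelial list, of 7 genes, were also apart, at 0.59 to 0.63 in HMGB2-KO and 0.53 to 0.58 in WT, with 5 of 7 genes higher. They overlapped with the values as deposited (2 of 7 higher) and with quantile normalization (6 of 7 higher). The median log2 fold change of that list was 0.05 after centring. Pecam1, an endothelial adhesion molecule gene, is named as the only 1 of the 7 with an unadjusted p under 0.05. It had a log2 fold change of 0.55 (limma, unadjusted p = 0.00416, adjusted p = 0.994). Medians of the monocyte list ran from -0.16 to 0.07 in HMGB2-KO and -0.17 to 0.07 in WT, with 3 of 6 genes higher. Those of the neutrophil list ran from -0.07 to -0.01 in HMGB2-KO and -0.00 to 0.20 in WT, with 2 of 6 genes higher, so these did not overlap either, by a gap under 0.01. With quantile normalization they overlapped. In that list Mmp8, a collagenase gene of neutrophil granules, had a log2 fold change of -0.32 (limma, unadjusted p just under 0.05, adjusted p = 0.994). The part of these markers in the values of the receptors, of Tnfrsf1b and of Cxcl1 was not tested.

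**Figure D2:**
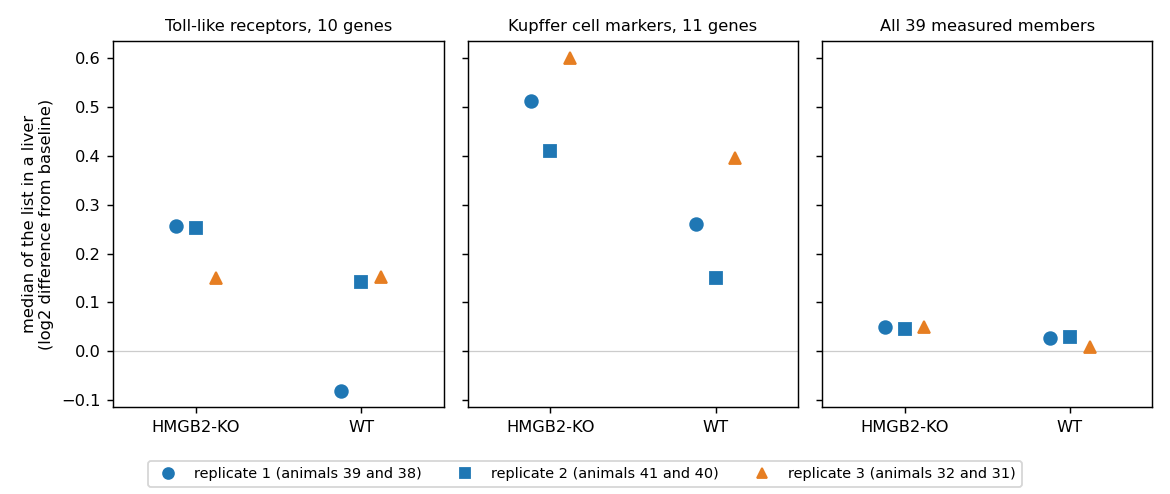
Median value of 3 gene lists in each liver (vertical axis, log2 difference from baseline, 1 point per liver, HMGB2-KO left and WT right in each panel, shape and colour by replicate and animal). The Kupffer marker medians lie at 0.41 to 0.60 in HMGB2-KO and 0.15 to 0.40 in WT, and the Toll-like receptor medians overlap. The medians of all 39 genes lie near 0, at 0.045 to 0.050 in HMGB2-KO and 0.009 to 0.029 in WT, without overlap.

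The adaptors downstream of the receptors went in both directions. Myd88, the adaptor of nearly all Toll-like and IL-1 receptors, was at 0.14, 0.10 and -0.01 in HMGB2-KO replicates 1 to 3, against 0.38, 0.20 and 0.20 in WT replicates 1 to 3. Every HMGB2-KO liver lay below every WT liver, although the gap between the groups was only 0.05. Its log2 fold change was -0.18 (SE 0.12), with an interval of -0.46 to 0.10 and an unadjusted p of 0.181 in limma. Ticam1, which encodes TRIF, the adaptor of TLR3 and TLR4, was at -0.12, 0.37 and 0.24 in the HMGB2-KO livers, against -0.23, 0.02 and -0.10 in the WT livers. HMGB2-KO replicate 1 fell below WT replicates 2 and 3 and the groups overlap, with a log2 fold change of 0.27 (SE 0.16), or 0.41 without HMGB2-KO replicate 1. Leaving out HMGB2-KO replicate 2 lowered it to 0.16.

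Irak3 encodes an IRAK that restrains signalling in macrophages, and Irak2 another member of the family. Irak3 was at 0.19, 0.04 and 0.07 in the HMGB2-KO livers, against -0.01, -0.02 and -0.13 in the WT livers. The HMGB2-KO livers lay above the WT livers by a small gap, with a log2 fold change of 0.16 (SE 0.12). Irak2 overlapped, at 0.08 (SE 0.12). Traf6 was at -0.18, 0.09 and -0.11 in the HMGB2-KO livers, against -0.06, -0.00 and 0.40 in the WT livers. WT replicate 3 alone was high, and the log2 fold change of -0.18 (SE 0.16) was -0.03 without it. Traf2, an adaptor of the TNF receptors, was at -0.05 (SE 0.19).

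At the level of the kinase and of NF-kB itself no difference was detectable. Ikbkb, a catalytic IKK subunit, was at -0.00, -0.01 and -0.01 in the HMGB2-KO livers, against 0.03, -0.15 and -0.19 in the WT livers. The HMGB2-KO livers were nearly level, and WT replicate 1 lay above them, with a log2 fold change of 0.10 (SE 0.12). Ikbkg, the regulatory subunit NEMO, was at -0.10 (SE 0.13). Of the subunits of NF-kB, Rela was at -0.50, -0.04 and -0.03 in the HMGB2-KO livers, against 0.03, -0.40 and 0.02 in the WT livers. HMGB2-KO replicate 1 and WT replicate 2 were both low, so that the log2 fold change of -0.07 (SE 0.19) lay between -0.21 and 0.08 when 1 liver was left out. The other subunits, Rel, Relb and Nfkb2, had log2 fold changes of -0.05, -0.04 and -0.02, each smaller than its standard error. All 4 measured subunits lay on the lower side after centring, quantile normalization or no scaling, by 0.02 to 0.07 after centring, but each of the 4 changed sign when 1 or another liver was left out.

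**Figure D3:**
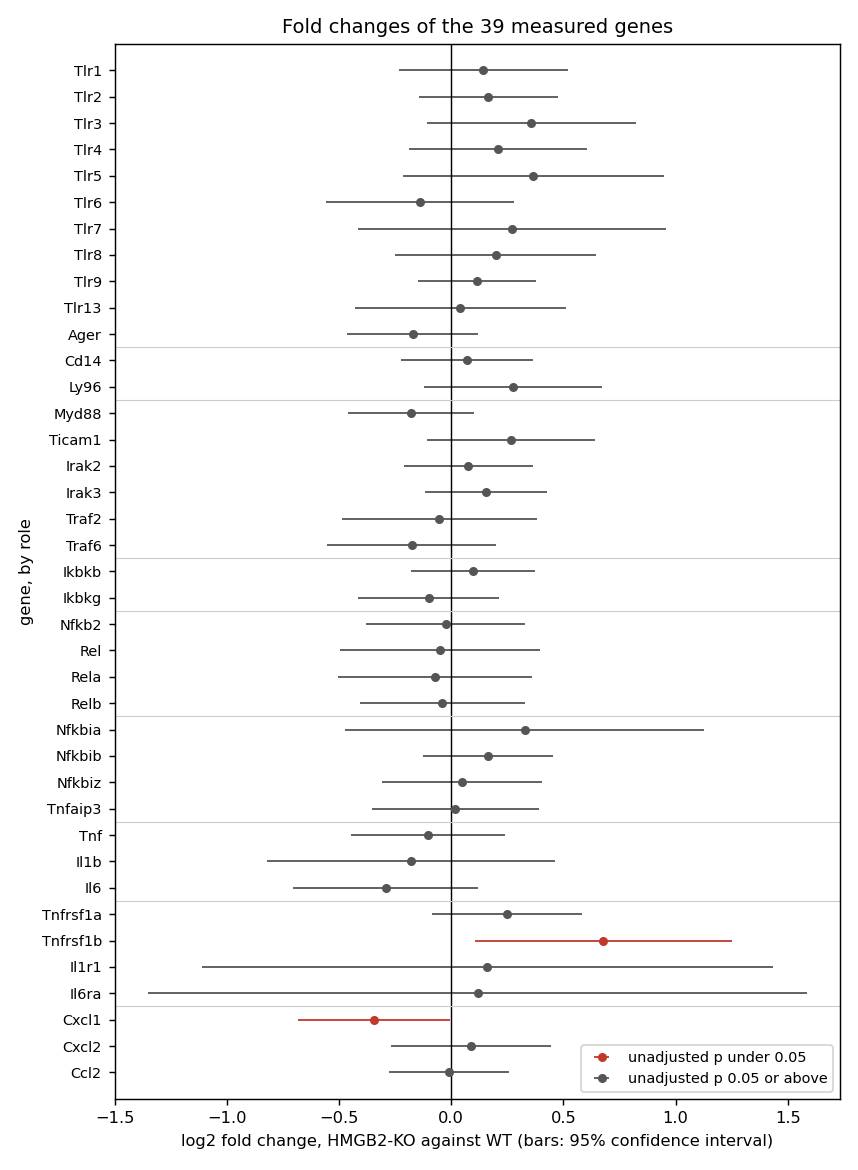
Log2 fold change of each of the 39 genes in HMGB2-KO against WT livers (points, horizontal axis) with its 95% confidence interval from limma (bars), in the order of the pathway from receptors at the top to chemokines at the bottom, in red where the unadjusted p is under 0.05. Only the intervals of Tnfrsf1b (0.10 to 1.25) and Cxcl1 (-0.68 to -0.01) leave out 0, and those of Il6ra and Il1r1 are the widest.

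NF-kB switches on its own inhibitors and the chemokines that draw in leukocytes, through a short DNA element in their promoters. Promoter sequence was at hand in RefSeq (build GRCm38.p6) for 31 of the 39 genes. The 250 bases before each start site were searched on both strands for the 10-letter NF-kB consensus, counting overlapping matches. It was found in 10 of 31 genes (32.3%) and in 4.46% of the 27025 genes with promoter sequence, namely Cxcl1, Cxcl2, Il1r1, Il6, Nfkb2, Nfkbia, Rel, Tlr2, Tlr3 and Tnfaip3. A match describes the letters and shows no binding. The last 120 bases before the start site are given for 4 target genes of NF-kB, to show the letters they share, and for Tnfrsf1b, where no match was found. Matches are in capitals, and all are written 5′ to 3′ on the strand of the gene.
Cxcl1: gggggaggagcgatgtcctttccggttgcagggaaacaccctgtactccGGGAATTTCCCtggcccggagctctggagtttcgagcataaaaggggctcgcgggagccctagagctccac
Cxcl2: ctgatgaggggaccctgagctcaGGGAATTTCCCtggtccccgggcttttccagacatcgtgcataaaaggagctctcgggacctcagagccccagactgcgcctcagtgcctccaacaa
Il6: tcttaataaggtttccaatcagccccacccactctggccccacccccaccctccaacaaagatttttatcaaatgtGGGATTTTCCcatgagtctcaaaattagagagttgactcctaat
Nfkbia: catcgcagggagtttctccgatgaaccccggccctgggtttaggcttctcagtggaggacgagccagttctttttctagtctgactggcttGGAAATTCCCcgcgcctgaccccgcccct
Tnfrsf1b: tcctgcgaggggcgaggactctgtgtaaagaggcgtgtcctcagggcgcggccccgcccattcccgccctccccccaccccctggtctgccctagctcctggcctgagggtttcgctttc
The stretches are chr5:90891125-90891244 (plus strand), chr5:90903779-90903898 (plus strand), chr5:30012994-30013113 (plus strand), chr12:55492648-55492767 (minus strand) and chr4:145246871-145246990 (minus strand), in the order printed. Cxcl1 and Cxcl2, both on chromosome 5, hold the same 11 letters, GGGAATTTCCC, which match on both strands, at positions -71 and -97 from their starts.

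Cxcl1, a neutrophil-attracting chemokine, lay lower in HMGB2-KO livers and did not pass the adjusted test. It was at -0.33, -0.63 and -0.39 in HMGB2-KO replicates 1 to 3, against -0.28, -0.09 and 0.05 in WT replicates 1 to 3. Every HMGB2-KO liver lay below every WT liver, with HMGB2-KO replicate 1 and WT replicate 1 only 0.05 apart. The means were -0.45 ± 0.16 in HMGB2-KO and -0.11 ± 0.17 in WT (SD, n = 3 each). The log2 fold change was -0.34 (SE 0.14) or 1.27-fold lower, with an interval of -0.68 to -0.01 (limma, unadjusted p = 0.0463, adjusted p = 0.994). The unadjusted p was 0.0253 on the uncentred values and 0.0675 after quantile normalization. It lay above 0.05 without HMGB2-KO replicate 2 (0.150) or 3 (0.0693) and without WT replicate 2 (0.0868) or 3 (0.140).

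Cxcl2, whose promoter holds the same element, was at -0.27, 0.03 and 0.04 in the HMGB2-KO livers, against -0.35, 0.03 and -0.14 in the WT livers. Replicate 1 was the lowest liver of either genotype and the groups overlap, with a log2 fold change of 0.09 (SE 0.15) and an interval of -0.27 to 0.44. Ccl2, which attracts monocytes, was at -0.08, -0.01 and 0.04 in the HMGB2-KO livers, against -0.09, 0.05 and 0.02 in the WT livers. All 6 livers lay within 0.14 of one another, a range smaller than in 99.4% of all genes, and the log2 fold change was -0.01 (SE 0.12), with an interval of -0.28 to 0.26. The difference between the fold changes of Cxcl1 and Cxcl2 was not tested.

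The cytokines of the pathway lay on the lower side, and none was separated between the genotypes. Il6, the main inducer of the hepatic acute phase, was at -0.03, -0.21 and -0.03 in the HMGB2-KO livers, against 0.20, 0.52 and -0.11 in the WT livers. WT replicates 1 and 2 were above all other livers and WT replicate 3 lay among the HMGB2-KO livers, with a log2 fold change of -0.29 (SE 0.18). It was -0.45 without WT replicate 3, with an unadjusted p under 0.05 in limma, and -0.13 without WT replicate 2. Il1b was at 0.16, -0.10 and 0.85 in the HMGB2-KO livers, against 0.84, 0.13 and 0.48 in the WT livers. One liver of each genotype was high, HMGB2-KO replicate 3 and WT replicate 1, and the log2 fold change was -0.18 (SE 0.28), between -0.46 and 0.02 when 1 liver was left out. Tnf was at 0.16, -0.28 and 0.05 in the HMGB2-KO livers, against 0.08, 0.13 and 0.04 in the WT livers. HMGB2-KO replicate 2 alone was low, and the log2 fold change of -0.10 (SE 0.15) was 0.03 without it.

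The inhibitors give the feedback of the pathway. Nfkbia, which encodes IkB alpha, was at 1.17, 0.53 and 0.03 in HMGB2-KO replicates 1 to 3, against 0.43, 0.67 and -0.35 in WT replicates 1 to 3. In both genotypes replicate 3 was the lowest liver, and the groups overlap over most of their range. Its log2 fold change was 0.33 (SE 0.34), with an interval of -0.47 to 1.13, and it lay between 0.028 without WT replicate 3 and 0.60 without HMGB2-KO replicate 3. Tnfaip3, which encodes the deubiquitinase A20, was at 0.06, -0.02 and 0.42 in the HMGB2-KO livers, against -0.04, 0.17 and 0.27 in the WT livers. There replicate 3 was the highest liver of each genotype, and the log2 fold change was 0.02 (SE 0.16). Nfkbib and Nfkbiz, which encode 2 further IkB proteins, had log2 fold changes of 0.16 (SE 0.13) and 0.05 (SE 0.15), with overlapping groups.

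The receptors for the cytokines held the widest difference of the 39 genes. Tnfrsf1b encodes TNFR2, the TNF receptor without a death domain that is found mostly on leukocytes and endothelium. It was at 0.95, 0.70 and 0.25 in HMGB2-KO replicates 1 to 3, against 0.22, 0.14 and -0.50 in WT replicates 1 to 3. Every HMGB2-KO liver lay above every WT liver, but HMGB2-KO replicate 3 and WT replicate 1 were only 0.03 apart. The means were 0.63 ± 0.35 in HMGB2-KO and -0.05 ± 0.40 in WT (SD, n = 3 each). The log2 fold change was 0.68 (SE 0.25) or 1.60-fold higher, with an interval of 0.10 to 1.25 (limma, unadjusted p = 0.0262, rank 329 by p of 19505 genes, adjusted p = 0.994). With the values as deposited the fold change was 0.56, the unadjusted p 0.0849 and the groups overlapped. The unadjusted p also lay above 0.05 without HMGB2-KO replicate 1 (0.0924) or 2 (0.0699) and without WT replicate 3, where the fold change was 0.45 (0.0796).

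Tnfrsf1a, which encodes the death domain receptor TNFR1 of most cell types, was at -0.47, -0.59 and -0.16 in the HMGB2-KO livers, against -0.71, -0.60 and -0.66 in the WT livers. The WT livers lay close together and below all HMGB2-KO livers, by 0.01 at the nearest. The log2 fold change was 0.25 (SE 0.14), with an interval of -0.09 to 0.58, and it was 0.13 without HMGB2-KO replicate 3.

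Il6ra and Il1r1, the receptor chains for IL-6 and IL-1, varied far more between livers than between genotypes. Il6ra, through which hepatocytes receive the acute-phase signal, was at 1.20, 1.81 and 0.14 in HMGB2-KO replicates 1 to 3, against 1.27, 1.95 and -0.43 in WT replicates 1 to 3. Its within-genotype SD of 1.05 was exceeded by 1.05% of all genes, and replicate 3 was the low liver in both genotypes. The log2 fold change was 0.12 (SE 0.63), with an interval of -1.35 to 1.59. Il1r1 was at 0.02, 1.54 and -0.43 in the HMGB2-KO livers, against -0.15, 1.08 and -0.29 in the WT livers. Replicate 2 was the high liver in both genotypes, and the log2 fold change was 0.16 (SE 0.55), with an interval of -1.11 to 1.43. Both intervals, from the fit with genotype alone, reach beyond 1 on the log2 scale on either side of 0. That fit could thus have detected only a large difference for these genes. With a term for replicate number added, the unadjusted p in limma was 0.540 for Il6ra and 0.345 for Il1r1, against 0.858 and 0.775.

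The replicates numbered 3 are animals 32 and 31, while the other livers come from animals 38 to 41, and the labels do not say what the numbers stand for. In limma with a term for these animals beside genotype, 4 of 39 genes had an unadjusted p under 0.05 for that term, beside a background of 8.49% of all genes. All 4 were lower in animals 31 and 32 (background for that side 4.59%), and 0 of 39 passed after adjustment, where the background is 0.0410%. Il6ra averaged -0.14 in animals 31 and 32 and 1.56 in animals 38 to 41, a difference of -1.70 on the log2 scale (SE 0.28, unadjusted p = 0.000583, adjusted p = 0.137). Both livers lay below all 4 others, by over 1 on the log2 scale, and in Nfkbia and Il1r1 they did so with smaller gaps. These 3 of 39 genes (7.69%) stand beside a background of 9.32% of all genes with both livers below all 4 others. Nfkbia differed by -0.86 (SE 0.20, adjusted p = 0.298), Tnfrsf1b by -0.62 (SE 0.14, adjusted p = 0.265) and Tlr7 by -0.61 (SE 0.23, adjusted p = 0.556). Rel, Traf2 and Tnfaip3 lay above all 4 others in both animals, at differences of 0.34, 0.30 and 0.30 with unadjusted p between 0.0638 and 0.126. These are again 3 of 39 (7.69%), beside a background of 10.4%.

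Tnfrsf1b had an unadjusted p under 0.05 for both genotype and animal number. Its HMGB2-KO liver exceeded the WT liver of the same replicate number by 0.72, 0.56 and 0.75 in replicates 1 to 3. With the animal term in the model its fold change of 0.68 had an unadjusted p of 0.00128 in limma (adjusted p = 0.950), and within animals 38 to 41 alone it was 0.64 (unadjusted p = 0.0108, adjusted p = 0.982). For Cxcl1 the fold change of -0.34 had an unadjusted p of 0.0447 in limma with the animal term (adjusted p = 0.950). Within animals 38 to 41 alone the fold change of Cxcl1 was -0.30 (unadjusted p = 0.165, adjusted p = 0.982).

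**Figure D4:**
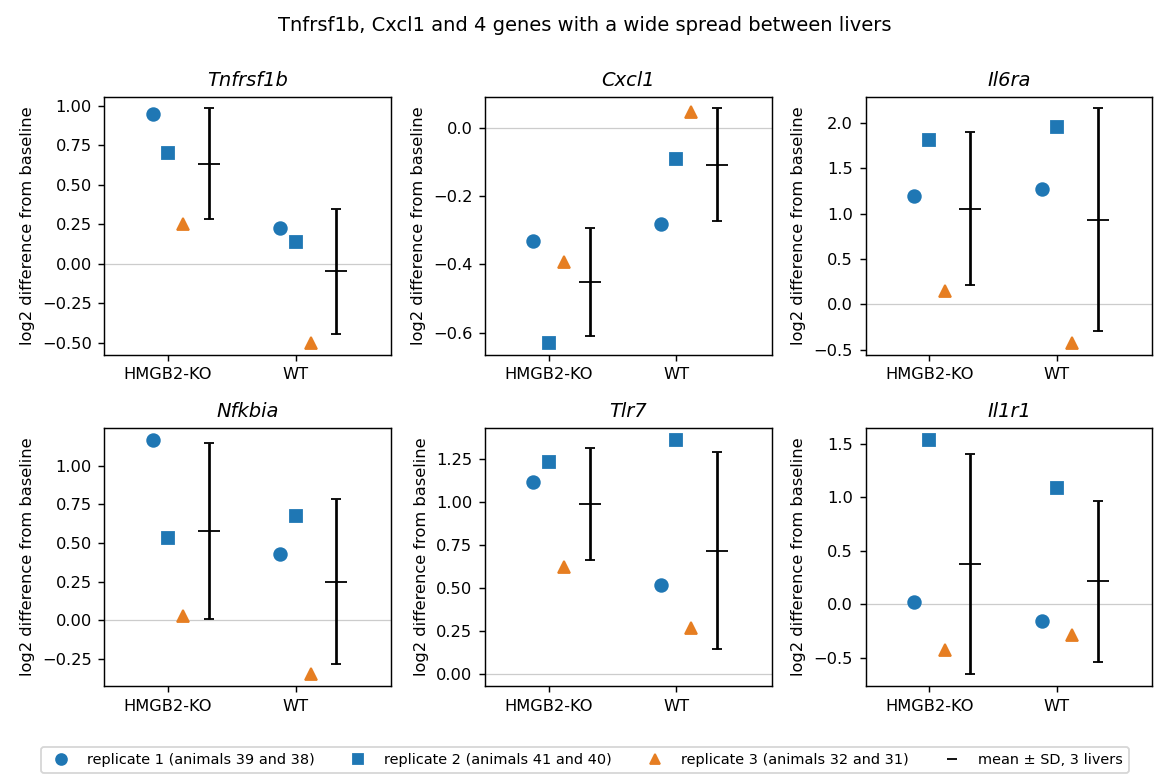
Values of 6 genes in each liver (vertical axes, log2 difference from baseline, scaled per gene), HMGB2-KO left and WT right in each panel, with shape by replicate, orange for animals 32 and 31, blue for animals 38 to 41, and the mean ± SD of 3 livers beside the points. Tnfrsf1b is higher and Cxcl1 lower in every HMGB2-KO liver than in every WT liver, while Il6ra runs from -0.43 to 1.95 within WT alone.

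The wider pathway was followed through 80 further genes of Toll-like receptor, IL-1, TNF and NF-kB signalling, of which 76 were measured. At an unadjusted p under 0.05 there were 1 on the higher and 1 on the lower side (2.63%, beside a background of 3.68%), and none passed after adjustment. The genotypes did not overlap in 5 of 76 genes (6.58%, beside a background of 9.67%). These were Tnip1 and Tnfsf10 on the higher side and Tlr11, Cxcl5 and Tnip2 on the lower side. The median log2 fold change of the 76 genes after centring was 0.05, with 52 of 76 higher (background 49.5%). The values as deposited bring the all-gene median to -0.12, and the count higher was not taken on them. After centring, the median value of the 76 genes was 0.03 to 0.05 in HMGB2-KO livers and -0.08 to 0.01 in WT livers, without overlap. Its lowest value, -0.08, was in WT replicate 2, the array that stands apart. With each array's median added back the genotypes overlap, WT replicate 2 being the highest liver and WT replicate 3 the lowest. Tnip1, which encodes a partner of A20 that restrains NF-kB, was at 0.21, 0.05 and 0.13 in the HMGB2-KO livers, against -0.23, -0.26 and -0.44 in the WT livers. Every HMGB2-KO liver lay above every WT liver, at a log2 fold change of 0.44 (SE 0.12) or 1.36-fold higher, with an interval of 0.15 to 0.73 (limma, unadjusted p = 0.00811, adjusted p = 0.994). Its fold change lay between 0.37 and 0.48 when 1 liver was left out. On the uncentred values it was 0.32 with an unadjusted p of 0.0866 in limma, and within animals 38 to 41 it was 0.38 with an unadjusted p of 0.0606.

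Tlr11, a mouse receptor for protozoan profilin, was at -0.04, -0.15 and -0.07 in the HMGB2-KO livers, against 0.32, 0.16 and 0.22 in the WT livers. The HMGB2-KO livers lay below the WT livers without overlap, at a log2 fold change of -0.32 (SE 0.12) (limma, unadjusted p = 0.0275, adjusted p = 0.994). The unadjusted p was 0.0893 within animals 38 to 41, and it lay above 0.05 without HMGB2-KO replicate 2 or 3 and without WT replicate 1 or 3, at up to 0.0862. The next genes by p were Tnfsf10, which encodes the death ligand TRAIL, at 0.30 (SE 0.14), the chemokine gene Cxcl5 at -0.33 (SE 0.16), Tnip2 at -0.27 (SE 0.16) and the adhesion molecule gene Icam1 at 0.34 (SE 0.20). Icam1 was at 0.09, -0.22 and -0.05 in the HMGB2-KO livers, against -0.13, -0.83 and -0.26 in the WT livers. WT replicate 2 was far below the rest, and without it the fold change was 0.13. The same array held the most extreme values of the list, with Ltbr at -8.26 and Tnip3 at -5.67 where the other livers lay between -0.53 and -0.21 for Ltbr and between -0.32 and 0.19 for Tnip3.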

How the data were processed

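Total RNA of each liver was extracted with Trizol and measured as biotin-labelled cDNA on 1 Clariom S array, per the labels' protocols. The authors deposited 22206 rows of log values (from -8.60 to 6.93), taken here as log2, each relative to a row baseline. The sources used here do not give the base, the probe summarization, the normalization or the baseline. All 6 columns were used and 0 left out. The platform annotation gave 19572 rows 1 gene symbol, 0 rows several and 2634 rows none. Where a gene had several rows (55 genes), that of the highest mean was taken, which left 19505 genes. None of the 39 measured members had several rows.

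Each array was centred on its median. HMGB2-KO was compared with WT over all genes with limma's moderated two-sided test (lmFit, eBayes; limma 3.58.1, R 4.3.3), with genotype as the only factor, with Benjamini-Hochberg adjustment and a threshold of 0.05. Members were described by counts, medians and values per liver, with no test over the list. The members, the 80 further pathway genes and the marker lists were chosen with earlier results of these data known. The rule for values in every liver took the 10 members with the smallest p and 23 fixed names, Nfkb1 among them, then the 6 further genes with the smallest p. Of these 6, values in every liver are printed for Tnip1, Tlr11 and Icam1, and only fold changes for Tnfsf10, Cxcl5 and Tnip2. Values per liver of Tlr7, Tlr8, Tlr9 and Irak3, and the values of Ltbr, Tnip3, Pecam1 and Mmp8, were added after they were seen. Promoter sequences are those of RefSeq, and 39 members matched by symbol in 31 cases.

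Alternatives were the values as deposited, quantile normalization, the mean of several rows, no moderation, array weights, a replicate block, a term for animals 31 and 32, animals 38 to 41 alone, an exact permutation test over livers and leaving out each liver. The number of arrays limits the precision. The statistics were tested on simulated data.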

Additional observations from a re-analysis of the deposited data

How the results depend on the processing

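The count of genes past the adjusted threshold was 0 under every alternative run. The count of members with an unadjusted p under 0.05, 2 in the setting used throughout, was 1 with the values as deposited, quantile normalization, array weights or the replicate block, 0 without moderation, and between 1 and 3 with 1 liver left out. Over all genes that share lay between 3.08% and 4.85% under these alternatives. The median log2 fold change of the members, 0.08, was -0.042 with the values as deposited, 0.11 with quantile normalization, 0.085 with array weights and 0.059 within animals 38 to 41. Leaving out 1 liver gave medians from 0.057 to 0.086. The count of members whose groups do not overlap, 6, was 3 with the values as deposited (11.4% of all genes), 13 within animals 38 to 41 (32.8%) and between 8 and 11 with 1 liver left out (17.9% to 21.8%), where fewer livers must be separated. The count in the wider pathway, 2, was 1 with the values as deposited, 0 within animals 38 to 41 and between 2 and 4 with 1 liver left out. The cause of these shifts was otherwise not tested.

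Fold changes near 0 changed sign. With the values as deposited, which lie lower by construction, these were Cd14 (-0.048), Ikbkb (-0.020), Tnfaip3 (-0.10), Il6ra (-0.0012), Cxcl2 (-0.031), Tlr9 (-0.0051), Tlr13 (-0.078), Irak2 (-0.042) and Nfkbiz (-0.070). Ccl2 was at 0.011 with quantile normalization and 0.012 with array weights. Within animals 38 to 41 Tnfaip3 was at -0.046, Il6ra at -0.11 and Tlr6 at 0.050. With 1 liver left out, Rela ran from -0.21 to 0.081, Tnfaip3 from -0.11 to 0.11, Tnf from -0.20 to 0.026, Il1b from -0.46 to 0.021, Il1r1 from -0.42 to 0.60, Il6ra from -0.56 to 0.63, Cxcl2 from -0.0088 to 0.19, Ccl2 from -0.051 to 0.019, Tlr13 from -0.15 to 0.21, Traf2 from -0.18 to 0.12, Nfkb2 from -0.12 to 0.086, Rel from -0.17 to 0.12, Relb from -0.13 to 0.090 and Nfkbiz from -0.058 to 0.19. Of 644 values of single genes from limma under alternatives, the other 604 kept their sign and their adjusted p stayed above the threshold. The exact permutation test over livers, run for 46 genes, gave no p below 0.1, the smallest it can give.

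The deviations of same-numbered livers from their genotype means correlated over genes at 0.04, 0.13 and 0.29 for replicates 1 to 3. Between livers of unlike number the correlations ran from -0.21 to 0.10. Whether the replicate numbers pair the livers was not tested. With the replicate block Tnfrsf1b was at 0.68 (limma, unadjusted p = 0.00187, adjusted p = 0.922).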
